A study of Homo sapiens with 8 samples.

Results

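In MH7A cells, 7 genes of long noncoding RNAs that respond to inflammation or stress were followed across the groups: LUCAT1, MIR155HG, MIR22HG, GAS5, NEAT1, MALAT1 and HOTAIR. They are 7 of 38173 genes in the count table, each found by its symbol, and all 7 passed the filter on low counts, which kept 16647 genes. The set was chosen by the measured level of LUCAT1, after it had been seen to be higher with Tub B. The values of LUCAT1 in every comparison with a Tub B group are therefore given as a description, with no test, and LUCAT1 is left out of the counts of members called in those comparisons.

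The cells were MH7A, an immortalised line of synovial cells from the joint of a person with rheumatoid arthritis. There were 4 groups of 2 libraries, all taken at 24 h: mock cells, cells given TNF-α (TNF), cells given TNF and 60 µM Tub B together, and cells given 60 µM Tub B alone. Tub B is tubuloside B, a phenylethanoid glycoside, and the series as a whole concerns phosphorylation of the kinase TAK1. The design text gives the TNF dose as 20 ng/mL and the labels write ng/ul, so the dose is uncertain. The labels name DMSO as the treatment of the mock cells, whereas the design text has them incubated as normal. All groups are one cell line, and no label tells if a group's 2 libraries stem from different cultures. The p-values reflect the scatter between libraries, which may be technical.

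A long noncoding RNA is transcribed and processed like a messenger RNA but codes for no known protein. LUCAT1 was first described in airway cells exposed to smoke and is known as a target of NRF2, the transcription factor of the oxidative stress response, and as a brake on interferon genes in immune cells. MIR155HG and MIR22HG are the primary transcripts from which miR-155 and miR-22 are cut. MIR155HG is a known target of NF-κB and AP-1, the transcription factors that TNF activates. GAS5 carries small nucleolar RNAs in its introns and is degraded while it is translated. NEAT1 builds the nuclear bodies called paraspeckles, MALAT1 sits in nuclear speckles, and HOTAIR is transcribed from the HOXC cluster, against the direction of the HOXC genes.

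The promoters of LUCAT1 and MIR155HG are shown because these genes had the widest range of levels of the 7. The sequences are from RefSeq (GRCh38.p14), 250 bases before to 50 after the start of each gene, read 5′ to 3′ on the gene's own strand. That of LUCAT1 lies at chr5:91314353-91314652 on the minus strand, and its capitals mark a match to the antioxidant response element core (TGACNNNGC, here on the opposite strand) that contains the AP-1 element TGAGTCA. That of MIR155HG lies at chr21:25561895-25562194 on the plus strand, and its capitals mark an interferon-stimulated response element (searched as 2 copies of GAAA with any 2 bases between them) and, nearer the start, an AP-1 element.
LUCAT1 promoter: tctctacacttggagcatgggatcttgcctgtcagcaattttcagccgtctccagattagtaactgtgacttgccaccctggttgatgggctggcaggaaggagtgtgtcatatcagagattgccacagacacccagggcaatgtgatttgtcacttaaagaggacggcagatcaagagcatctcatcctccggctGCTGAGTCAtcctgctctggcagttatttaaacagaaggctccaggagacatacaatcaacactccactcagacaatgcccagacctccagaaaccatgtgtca
MIR155HG promoter: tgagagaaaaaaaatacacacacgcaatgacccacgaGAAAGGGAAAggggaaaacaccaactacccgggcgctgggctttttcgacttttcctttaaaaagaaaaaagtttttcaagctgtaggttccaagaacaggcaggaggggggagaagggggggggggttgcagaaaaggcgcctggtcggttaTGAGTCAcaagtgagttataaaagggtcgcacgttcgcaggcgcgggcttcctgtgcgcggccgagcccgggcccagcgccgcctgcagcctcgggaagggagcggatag

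Both strands were searched for these motifs and for the NF-κB consensus of 10 letters. The antioxidant response element core was in 13.3% of the 35116 RefSeq promoters of this length, the AP-1 element in 4.95%, the interferon-stimulated response element in 3.57% and the NF-κB consensus in 5.91%. The combined form seen in LUCAT1 (TGACTCAGC on one strand, where both elements overlap) was in 197 promoters, or 0.561%. The matches began at position -54 from the start of LUCAT1 for the antioxidant response element core, and at -213 and -60 from the start of MIR155HG for the interferon-stimulated and AP-1 elements. MALAT1 had 2 matches to the antioxidant response element core at the first of its listed starts. The letters of the NF-κB consensus were in none of the promoters searched for LUCAT1, MIR155HG, MIR22HG, GAS5 and MALAT1, which says only that they are not in these windows. NEAT1 and HOTAIR were not searched. A match is a string of letters and not a measured binding site.

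The mature microRNAs of both host genes show what MIR155HG and MIR22HG are processed into. Capitals mark the seed, bases 2 to 8, by which a microRNA pairs with its targets, and no seed is shared among the 4.
miR-155-5p: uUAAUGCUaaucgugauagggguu
miR-155-3p: cUCCUACAuauuagcauuaaca
miR-22-3p: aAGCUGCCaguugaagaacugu
miR-22-5p: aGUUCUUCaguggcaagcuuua
The libraries held poly(A)-selected RNA, so the values below are those of the host transcripts, and mature microRNAs were not measured.

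The libraries held between 14073186 and 31937334 counts. A count of 0 would allow a level of up to 0.0992 to 0.208 CPM (a count scaled to the size of its library, the unit of all levels here), taking 3 counts as the limit. The library kit does not keep strand, so reads of a gene and of a gene on the opposite strand cannot be told apart where they overlap. Among list genes named below, such overlaps include SNHG14 with UBE3A, SNHG4 with SIL1, SOCS1 with RMI2, MIRLET7BHG with PRR34 and OIP5-AS1 with OIP5. Poly(A) selection recovers poorly those transcripts that end without an ordinary poly(A) tail, which holds for MALAT1 and the long form of NEAT1. Of 16 fibroblast markers 15 passed the filter, with a summed level of 38107 to 43834 CPM in mock, 42882 to 44065 in TNF, 33203 to 33823 in TNF + Tub B and 38393 to 41024 in Tub B. The 16 leukocyte markers summed to 3.09 to 4.21 CPM over all libraries. The 10 endothelial and epithelial markers, mostly the keratin KRT19, summed to 145 to 164 CPM in mock, 80.7 to 81.2 in TNF, 59.5 to 59.9 in TNF + Tub B and 86.8 to 108 in Tub B. The marker sums therefore differed between the groups compared below, and their part in the results was not tested.

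TNF changed most of the 7 genes. Against mock, 2 of 7 were higher (LUCAT1 and MIR155HG) and 4 were lower (NEAT1, MALAT1, GAS5 and HOTAIR) at an adjusted p below 0.05 (edgeR's quasi-likelihood test, Benjamini-Hochberg over all genes tested), and MIR22HG did not pass. Of all genes tested, 17.2% were called higher and 13.3% lower, 30.5% in all. LUCAT1 is counted here although the TNF and mock libraries were the controls of the comparisons that chose it. In cells that had Tub B throughout, TNF + Tub B against Tub B, 5 of the 6 genes other than LUCAT1 were called, MIR155HG higher and NEAT1, MALAT1, GAS5 and HOTAIR lower, with 14.3% of all genes called higher and 12.1% lower, 26.4% in all. When Tub B was added to TNF, 3 of the 6 genes other than LUCAT1 were called against TNF alone, NEAT1 and GAS5 higher and MIR155HG lower, with 7.11% of all genes called higher and 13.1% lower, 20.2% in all. Tub B alone changed 1 of 6 against mock, NEAT1, which was higher, with 4.83% of all genes called higher and 7.91% lower, 12.7% in all. TNF against mock and TNF + Tub B against TNF share the TNF libraries, and TNF against mock and Tub B against mock share the mock libraries, so the values of these comparisons are set side by side and are not independent.

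**Figure D1:**
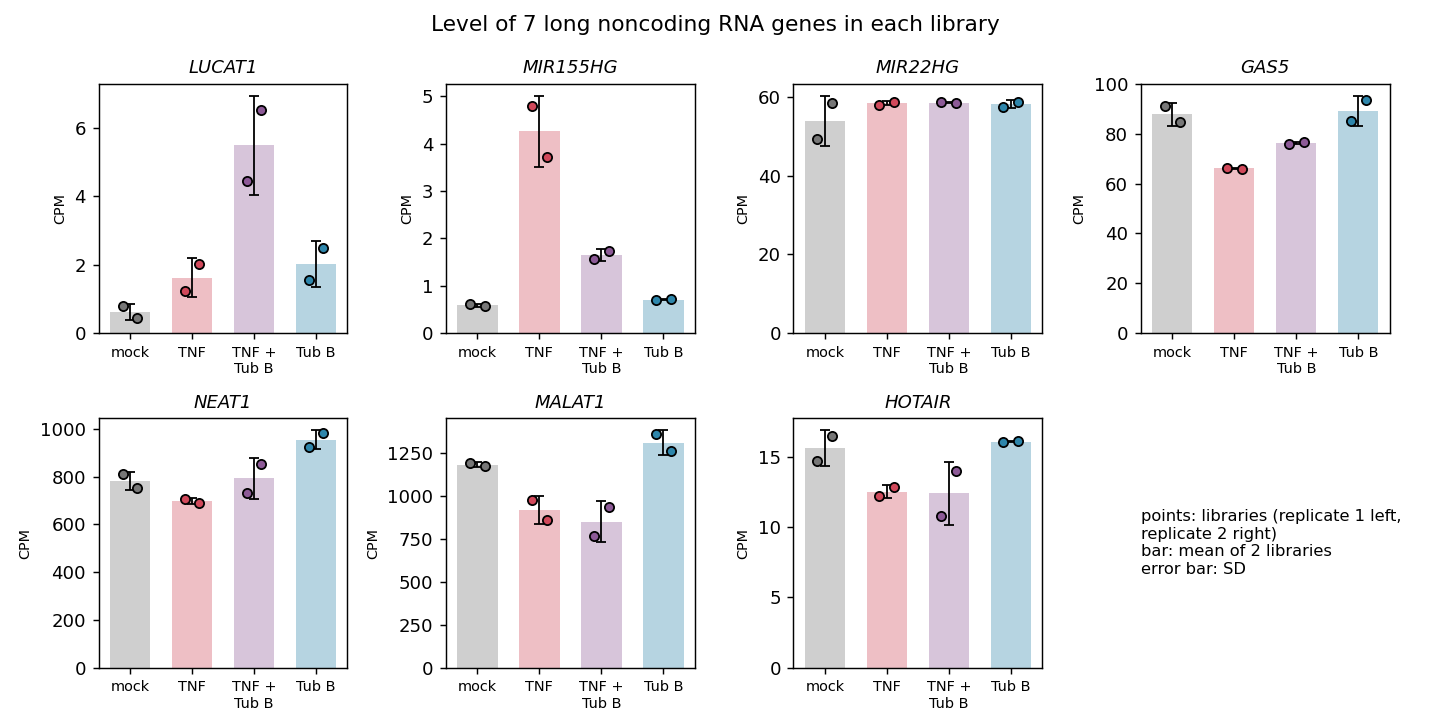
Level in CPM (vertical axes, linear from 0, a different scale for each gene) of the 7 long noncoding RNA genes in mock, TNF, TNF + Tub B and Tub B libraries. Points are the 2 libraries of a group, bars their mean and error bars the SD. LUCAT1 was highest in both TNF + Tub B libraries, at 4.45 and 6.51 CPM, and MIR155HG in both TNF libraries, at 4.79 and 3.73 CPM.

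LUCAT1 was a rare transcript in every group. Its level in mock was 0.782 and 0.451 CPM, in TNF 1.22 and 2.02 CPM, in TNF + Tub B 4.45 and 6.51 CPM and in Tub B 1.54 and 2.48 CPM. Both TNF + Tub B libraries lay above the other 6, both mock libraries lay below them, and the TNF and Tub B libraries overlapped. These levels rest on 22 and 8 counts in mock, 37 and 38 with TNF, 77 and 94 with TNF + Tub B and 33 and 49 with Tub B.

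TNF raised LUCAT1 over mock by 1.24 ± 0.40 (log2 fold change ± SE, n = 2 per group, adjusted p = 0.0233, edgeR). This call rests on single libraries: the adjusted p was 0.0949 without mock replicate 2 and 0.173 without TNF replicate 2. The TNF and mock libraries were also the controls of the comparisons that chose the gene. As a description, the mean level with TNF + Tub B was 3.38-fold that with TNF, 5.48 ± 1.46 against 1.62 ± 0.565 CPM (mean ± SD, n = 2). The mean with Tub B alone was 3.26-fold that of mock, 2.01 ± 0.667 against 0.617 ± 0.234 CPM. The fitted log2 difference was 1.80 ± 0.28 with TNF present and 1.61 ± 0.39 without it, and the difference between them was 0.20 ± 0.51, whose sign turned when some single libraries were left out. Between TNF + Tub B and Tub B the fitted log2 difference was 1.44 ± 0.28.

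Most known targets of NRF2 were higher wherever Tub B was present. Like the other lists, this list was chosen with earlier results of these data known, so its counts are a description. Of 19 NRF2 targets tested, 18 were called higher in TNF + Tub B against TNF, where 7.11% of all genes were. The median log2 fold change there was 0.69 against a median of -0.005 over all genes. In Tub B against mock 17 of 19 were called higher, where 4.83% of all genes were, with a median of 0.85 against 0.003. These counts stayed at 17 or 18 under every alternative of scaling, filter, test and left-out library. In TNF against mock 2 were higher and 5 lower, where 17.2% and 13.3% of all genes were, with a median of 0.02, and the 5 ranged from 2 to 7 over the alternatives. In TNF + Tub B against Tub B, where the fitted LUCAT1 difference was 1.44, 3 were higher and 8 lower. There 14.3% and 12.1% of all genes were, and the median of the list was -0.12 against -0.008 over all genes.

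SLC7A11, the cystine transporter that feeds glutathione synthesis, had a mean of 9.33 CPM in mock, 7.24 with TNF, 68.0 with TNF + Tub B and 88.6 with Tub B. It rose by 3.22 ± 0.12 when Tub B was added to TNF (adjusted p = 1.86e-11, edgeR) and by 3.25 ± 0.12 with Tub B alone (adjusted p = 4.69e-12). NQO1, a quinone reductase, rose by 1.83 ± 0.06 and 2.34 ± 0.06 in the same comparisons. HMOX1, which breaks down heme, rose with TNF as well, by 0.58 ± 0.07, and then by 1.45 ± 0.06 when Tub B was added. FTH1, the ferritin heavy chain that stores iron, rose by 1.08 ± 0.06 with TNF. LUCAT1 and HMOX1 both rose in TNF against mock, whereas SLC7A11 (-0.35 ± 0.16, adjusted p = 0.109) and NQO1 (0.02 ± 0.06, adjusted p = 0.856) did not pass there.

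**Figure D2:**
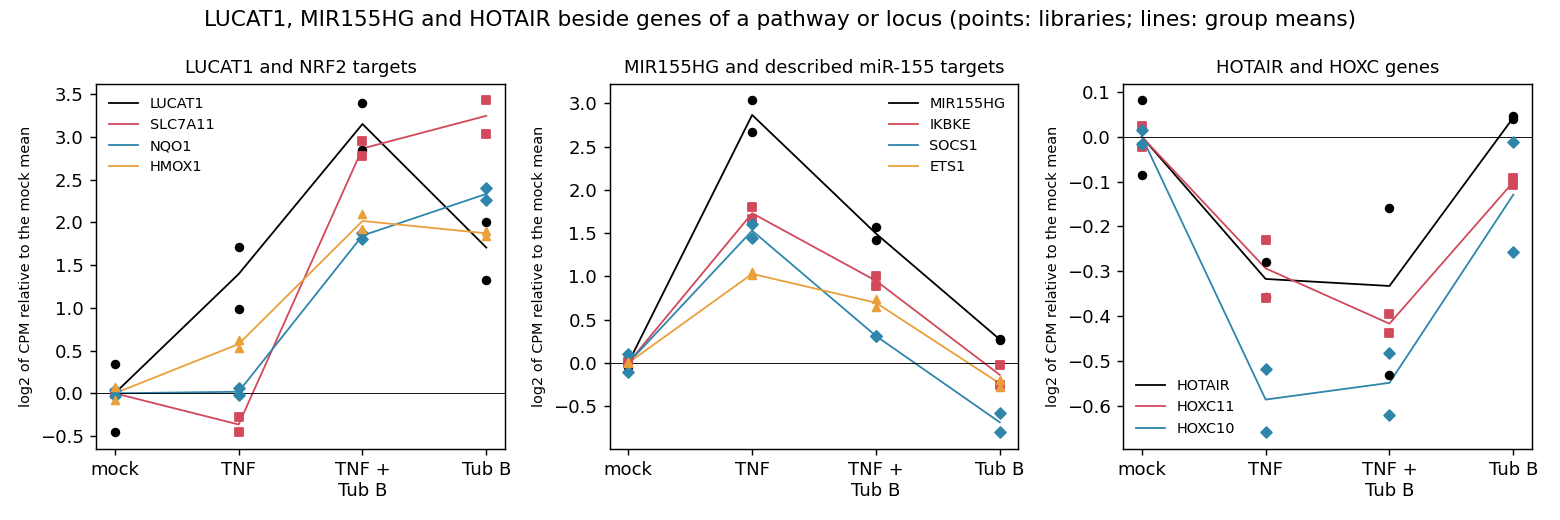
Level of LUCAT1 with 3 NRF2 targets (left), MIR155HG with 3 described miR-155 targets (middle) and HOTAIR with 2 HOXC genes (right), as log2 of CPM relative to the mock mean (vertical axes), by group. Points are libraries and lines join group means. LUCAT1 and HMOX1 were above mock in TNF and higher in TNF + Tub B, while MIR155HG, IKBKE and SOCS1 were highest in TNF.

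MIR155HG had the largest response to TNF of the 7 genes. Its level was 0.604 and 0.564 CPM in mock, 4.79 and 3.73 CPM with TNF, 1.56 and 1.73 CPM with TNF + Tub B and 0.700 and 0.709 CPM with Tub B. The TNF libraries lay above all others, those of TNF + Tub B in between, and the lowest were mock and Tub B. The counts were 17 and 10 in mock, 145 and 70 with TNF, 27 and 25 with TNF + Tub B and 15 and 14 with Tub B.

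TNF raised MIR155HG by 2.87 ± 0.26 over mock (log2, adjusted p = 8.23e-08, edgeR). Adding Tub B to TNF lowered it by 1.40 on the log2 scale, a change of -1.40 ± 0.23 (adjusted p = 0.000204, edgeR), and both calls were kept under all 18 alternatives. In Tub B cells the response to TNF was 1.21 ± 0.33 (adjusted p = 0.0095, edgeR). It missed the threshold when TNF + Tub B replicate 2 (adjusted p = 0.0557) or Tub B replicate 1 (adjusted p = 0.0594) was left out. Tub B alone gave 0.26 ± 0.38 against mock, with a 95% interval of -0.54 to 1.05 (adjusted p = 0.731). The interaction, the response to TNF with Tub B minus that without, was -1.66 ± 0.45 (adjusted p = 0.0447, edgeR). It was the 1 member of 6 called, where 1.04% of all genes were called higher and 3.2% lower, 4.23% in all, and it missed the threshold under most alternatives.

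Among described targets of miR-155, more were called higher than lower with TNF, and more lower than higher when Tub B was added to it. Of 16 tested, 9 were higher and 1 lower with TNF against mock, where 17.2% and 13.3% of all genes were, with a median of 0.23 against -0.003 over all genes. In TNF + Tub B against TNF 2 were higher and 8 lower, where 7.11% and 13.1% of all genes were, with a median of -0.18 against -0.005 over all genes, and the lower calls ranged from 5 to 9 over the alternatives. SOCS1, the inhibitor of JAK kinases that miR-155 is known to repress, had a mean of 6.98 CPM in mock, 20.2 with TNF, 8.67 with TNF + Tub B and 4.34 with Tub B. It rose by 1.54 ± 0.11 with TNF (adjusted p = 3.40e-09, edgeR), and its change with added Tub B was -1.21 ± 0.11 (adjusted p = 3.01e-07). IKBKE, a kinase of the interferon pathway, rose by 1.72 ± 0.08 with TNF and changed by -0.78 ± 0.08 with added Tub B. The transcription factor ETS1 rose by 1.03 ± 0.05 with TNF. In Tub B against mock 2 of the 16 were higher and 3 lower, where 4.83% and 7.91% of all genes were. TP53INP1, a stress-induced regulator of p53 and autophagy, rose there by 0.37 ± 0.06. SOCS1 changed by -0.67 ± 0.14 (adjusted p = 0.00429, edgeR) and PICALM by -0.32 ± 0.04 in the same comparison. SOCS1, IKBKE and ETS1 thus rose with TNF, as MIR155HG did.

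C5orf56 and PSMB8-AS1, long noncoding RNAs tied to interferon, rose with TNF and were lower in TNF + Tub B than in TNF. They come from a list of 13 tied to NF-κB or interferon, of which 6 were in the table and 3 passed the filter on low counts. C5orf56, which lies on the opposite strand to the interferon regulator gene IRF1 and overlaps it, had a mean of 2.87 CPM in mock, 13.8 with TNF and 5.05 with TNF + Tub B. It rose by 2.28 ± 0.16 with TNF (adjusted p = 2.75e-09, edgeR) and changed by -1.44 ± 0.15 with added Tub B (adjusted p = 1.77e-06), and its reads cannot be told apart from those of IRF1 where they overlap. PSMB8-AS1, antisense to an immunoproteasome gene and named after its values were seen, rose by 2.06 ± 0.33 with TNF (adjusted p = 8.64e-05, edgeR). Its change with added Tub B was -1.52 ± 0.33 (adjusted p = 0.00291), and that result missed the threshold without TNF replicate 1 (adjusted p = 0.0648) or TNF + Tub B replicate 1 (adjusted p = 0.0571). DESeq2 gave PSMB8-AS1 no adjusted p in the second comparison. The other gene of the 3, NRIR, a negative regulator of interferon genes, passed the filter only through its TNF libraries, so its difference from them is given with no test. It had 4 and 0 counts in mock, 91 and 79 with TNF, 8 and 5 with TNF + Tub B and 3 and 1 with Tub B. In Tub B against mock PSMB8-AS1 differed by -0.11 ± 0.46 and C5orf56 by -0.03 ± 0.21.

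MIR22HG, the host of miR-22, kept nearly one level. In the GENCODE 29 annotation it overlaps WDR81 on the opposite strand, whereas RefSeq lists WDR81 as a neighbour. WDR81 had group means of 54.4 to 61.0 CPM. Reads from the stretch that these genes share could count for either or be left out of both. MIR22HG stood at 49.4 and 58.5 CPM in mock and 58.1 and 58.9 with TNF. With TNF + Tub B it was at 58.7 and 58.5 CPM and with Tub B at 57.6 and 58.9. Mock replicate 1 was the low library, and the other 7 lay between 57.6 and 58.9 CPM. The change was 0.13 ± 0.07 with TNF, with a 95% interval of -0.01 to 0.26 (adjusted p = 0.173, edgeR), and 0.004 ± 0.07 when Tub B was added to TNF, with an interval of -0.14 to 0.15 (adjusted p = 0.979). It passed in TNF against mock (0.24, adjusted p = 0.00575) and in Tub B against mock (0.23, adjusted p = 0.0167) once mock replicate 2 was left out, since the low library then stood alone for mock.

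Among 12 tested host genes of other microRNAs, 2 were higher and 2 lower with TNF, near the 17.2% and 13.3% of all genes called, with a median of -0.03 against -0.003 over all genes. CARMN (listed as MIR143HG), the host of the smooth muscle microRNA miR-143, had a mean of 8.02 CPM in mock, 3.83 with TNF, 1.96 with TNF + Tub B and 4.34 with Tub B. It changed by -1.05 ± 0.15 with TNF (adjusted p = 2.08e-05, edgeR) and by -0.87 ± 0.15 with Tub B (adjusted p = 0.000729). MIR210HG, host of the hypoxia-induced miR-210, rose by 0.91 ± 0.17 with TNF and by a further 0.95 ± 0.14 when Tub B was added, from 2.82 CPM in mock to 5.38 and 10.2 CPM. MIRLET7BHG, host of a let-7 microRNA, changed by -0.54 ± 0.08 when Tub B was added to TNF and by -0.40 ± 0.07 with Tub B alone. MIR31HG changed by -0.35 ± 0.10 with Tub B alone, and CASC10 by -0.93 ± 0.13 with TNF.

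**Figure D3:**
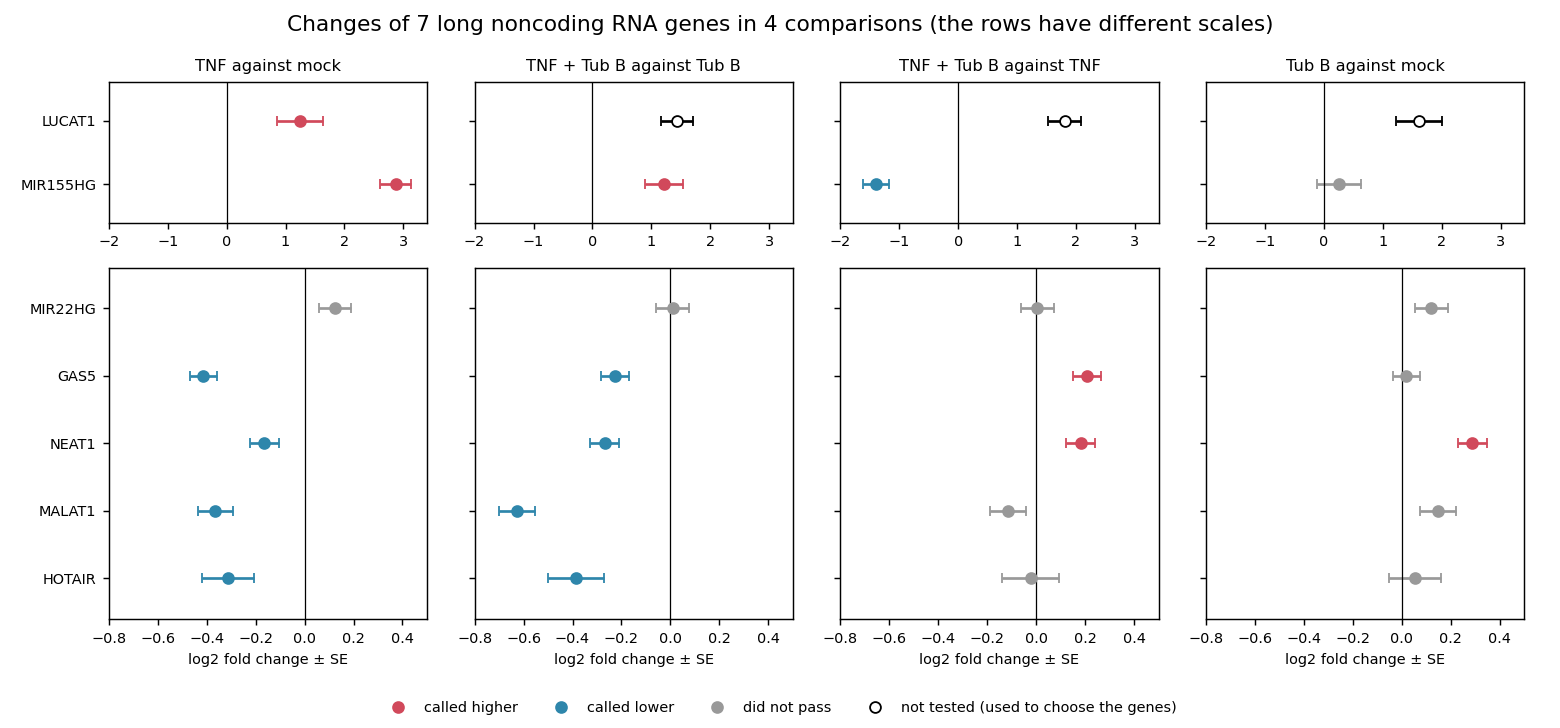
Log2 fold change ± SE (horizontal axes) of the 7 genes in 4 comparisons, with LUCAT1 and MIR155HG in the upper panels on a wider scale. Red and blue points were called higher and lower at an adjusted p below 0.05, grey points did not pass, and open points were not tested. In TNF against mock MIR155HG stands at 2.87 and LUCAT1 at 1.24, while MALAT1 (-0.36) and GAS5 (-0.41) lie below 0.

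GAS5 fell with TNF and was partly higher again when Tub B was present. Its level was 91.2 and 84.7 CPM in mock, 66.4 and 65.9 with TNF, 76.1 and 76.6 with TNF + Tub B and 85.0 and 93.6 with Tub B. The TNF libraries were the lowest of the 8, those of TNF + Tub B came next, and mock and Tub B overlapped. The change was -0.41 ± 0.06 with TNF (adjusted p = 1.28e-05, edgeR), and it was called under all 18 alternatives. Adding Tub B to TNF raised GAS5 by 0.21 ± 0.06 (adjusted p = 0.0162, edgeR). That call was lost without either TNF library or either TNF + Tub B library (adjusted p of 0.0892 to 0.102). In Tub B cells TNF changed it by -0.23 ± 0.06 (adjusted p = 0.00624, edgeR), which was lost without Tub B replicate 2 (adjusted p = 0.102). Tub B alone gave 0.02 against mock, with an interval of -0.10 to 0.13 (adjusted p = 0.879). On the opposite strand GAS5 meets ZBTB37, a zinc finger gene, which differed by 0.02 with TNF (adjusted p = 0.887), and GAS5-AS1, which had group means of 0.535 to 0.815 CPM.

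Some other hosts of small nucleolar RNAs fell with TNF. Of 24 tested, 11 were called lower, where 13.3% of all genes were, and the other 13 did not pass. The median was -0.22 against -0.003 over all genes. The count was 7 without mock replicate 1, 7 without TNF replicate 2 and 7 with DESeq2. DANCR, a long noncoding RNA named for keeping cells undifferentiated, had the largest change by the naming rule, -0.98 ± 0.13 (adjusted p = 9.50e-06, edgeR), from 11.5 CPM in mock to 5.77 CPM. SNHG8 changed by -0.62 ± 0.11 and SNHG4 by -0.59 ± 0.11. In TNF + Tub B against TNF 2 of the 24 were higher and 2 lower, where 7.11% and 13.1% of all genes were. SNHG14, the long host transcript of the Prader-Willi region, rose by 0.22 ± 0.05, while SNHG15 and SNHG3 changed by -0.33 ± 0.10 and -0.23 ± 0.07. Tub B alone lowered 3 of 24, where 7.91% of all genes were lower, SNHG1 by the most (-0.43 ± 0.08, adjusted p = 0.00213), and 1 was left without mock replicate 1 or without Tub B replicate 1.

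GAS5 belongs to the transcripts with a 5′ terminal oligopyrimidine tract, whose translation follows the growth kinase mTOR. Of 19 messenger RNAs of this class tested, 10 were lower with TNF, where 13.3% of all genes were, with a median of -0.13 against -0.003 over all genes. EIF3F, an initiation factor subunit, changed by -0.35 ± 0.04 (adjusted p = 5.94e-06, edgeR), from 205 to 160 CPM, and EIF4B, another initiation factor, by -0.24 ± 0.05. When Tub B was added to TNF, 4 of 19 were higher, where 7.11% of all genes were, EIF4B by 0.27 ± 0.05 and TPT1 by 0.24 ± 0.05. This count depends on the scaling and the libraries: it was 12 with library totals alone, 7 with upper-quartile scaling and 1 without TNF replicate 1 or without TNF + Tub B replicate 2. Without composition scaling the median of all genes in TNF + Tub B against TNF moved by 0.119 on the log2 scale. Of all 16647 genes tested, 3431 were called higher with library totals and 1733 with upper-quartile scaling, against 1184 in the main scaling.

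NEAT1 was higher in the Tub B libraries than in any other. Its level was 809 and 754 CPM in mock, 707 and 688 with TNF, 731 and 853 with TNF + Tub B and 925 and 982 with Tub B. The TNF libraries were the lowest of the 8, and those of TNF + Tub B overlapped mock. Tub B alone raised it over mock by 0.29 ± 0.06 (adjusted p = 0.0035, edgeR), a call lost without Tub B replicate 2 (0.24, adjusted p = 0.0883). TNF in Tub B cells changed it by -0.27 ± 0.06 (adjusted p = 0.00222, edgeR), which missed the threshold with TNF + Tub B replicate 1 left out (adjusted p = 0.0716). TNF against mock gave -0.16 ± 0.06 (adjusted p = 0.0436, edgeR), which missed the threshold when mock replicate 1, either TNF library or either Tub B library was left out (adjusted p of 0.0598 to 0.219). Adding Tub B to TNF gave 0.18 ± 0.06 (adjusted p = 0.0369, edgeR). That call was lost without either TNF library, either Tub B library or TNF + Tub B replicate 2, and in the last case the change was 0.06 (adjusted p = 0.608). NEAT1 and MALAT1 are neighbours on one chromosome.

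The proteins of paraspeckles, which NEAT1 assembles, moved little. Of 19 tested, 3 were higher and 1 lower with TNF, where 17.2% and 13.3% of all genes were, with a median of -0.02. With Tub B alone 5 of 19 were lower, where 7.91% of all genes were, with a median of -0.08 against 0.003 over all genes, and the count ranged from 2 to 5 over the alternatives. RBM14, a protein needed for paraspeckles to form, changed by -0.32 ± 0.06 with Tub B alone (adjusted p = 0.00131, edgeR) and by -0.26 ± 0.06 when Tub B was added to TNF (adjusted p = 0.00403). In TNF + Tub B against TNF 1 was higher and 4 lower, where 7.11% and 13.1% of all genes were. With library totals alone 5 were higher and 0 lower, where 3431 and 1325 of all 16647 genes tested were. The direction of this list thus depends on the scaling there, as does that of all genes.

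MALAT1 was lower in every library with TNF than in every library without it. Its level was 1193 and 1176 CPM in mock, 977 and 862 with TNF, 765 and 934 with TNF + Tub B and 1363 and 1260 with Tub B. TNF changed it by -0.36 ± 0.07 against mock (adjusted p = 0.00072, edgeR) and by -0.63 ± 0.07 in Tub B cells (adjusted p = 3.23e-06). Both of these calls were kept under all 18 alternatives. The difference between these responses was -0.26 and did not pass (adjusted p = 0.193). Adding Tub B to TNF gave -0.12 ± 0.07, with an interval of -0.27 to 0.04 (adjusted p = 0.303). Without TNF + Tub B replicate 2 that change was -0.28 and passed (adjusted p = 0.0138), and with no filter on low counts it passed too (adjusted p = 0.00636). Tub B alone gave 0.15 ± 0.07 (adjusted p = 0.207).

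HOTAIR, like MALAT1, was lower with TNF. Its level was 14.7 and 16.5 CPM in mock, 12.2 and 12.9 with TNF, 10.8 and 14.0 with TNF + Tub B and 16.1 and 16.1 with Tub B. Here too each library with TNF lay below each library without it. TNF changed it by -0.31 ± 0.11 against mock (adjusted p = 0.0337, edgeR) and by -0.39 ± 0.12 in Tub B cells (adjusted p = 0.0181). The first call was lost with DESeq2 (adjusted p = 0.12) and without mock replicate 2, either TNF library or either Tub B library (adjusted p of 0.0525 to 0.219). The second was lost with DESeq2 (adjusted p = 0.0635) and without TNF + Tub B replicate 1 (-0.21, adjusted p = 0.322) or either Tub B library. Adding Tub B to TNF gave -0.02 ± 0.12, with an interval of -0.27 to 0.22 (adjusted p = 0.927), and Tub B alone gave 0.05 (adjusted p = 0.81).

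HOTAIR overlaps HOXC11, a homeobox gene of the posterior body axis, on the opposite strand. HOXC11 had a mean of 14.0 CPM in mock, 11.4 with TNF, 10.5 with TNF + Tub B and 13.0 with Tub B. It changed by -0.31 ± 0.09 with TNF (adjusted p = 0.0185, edgeR), the same log2 size as HOTAIR, and by -0.31 ± 0.10 in Tub B cells (adjusted p = 0.0321). Reads from the stretch that the genes share could count for either or be left out of both. Of 17 HOX cluster genes and transcripts tested, 3 were lower with TNF, near the 13.3% of all genes called lower, with a median of -0.17 against -0.003 over all genes, and the count fell to 1 without mock replicate 1 or without TNF replicate 1. HOXC10, the next gene of the cluster, changed by -0.58 ± 0.12 with TNF (adjusted p = 0.000931), and HOXD10 by -0.68 ± 0.17 when Tub B was added to TNF (adjusted p = 0.00764).

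**Figure D4:**
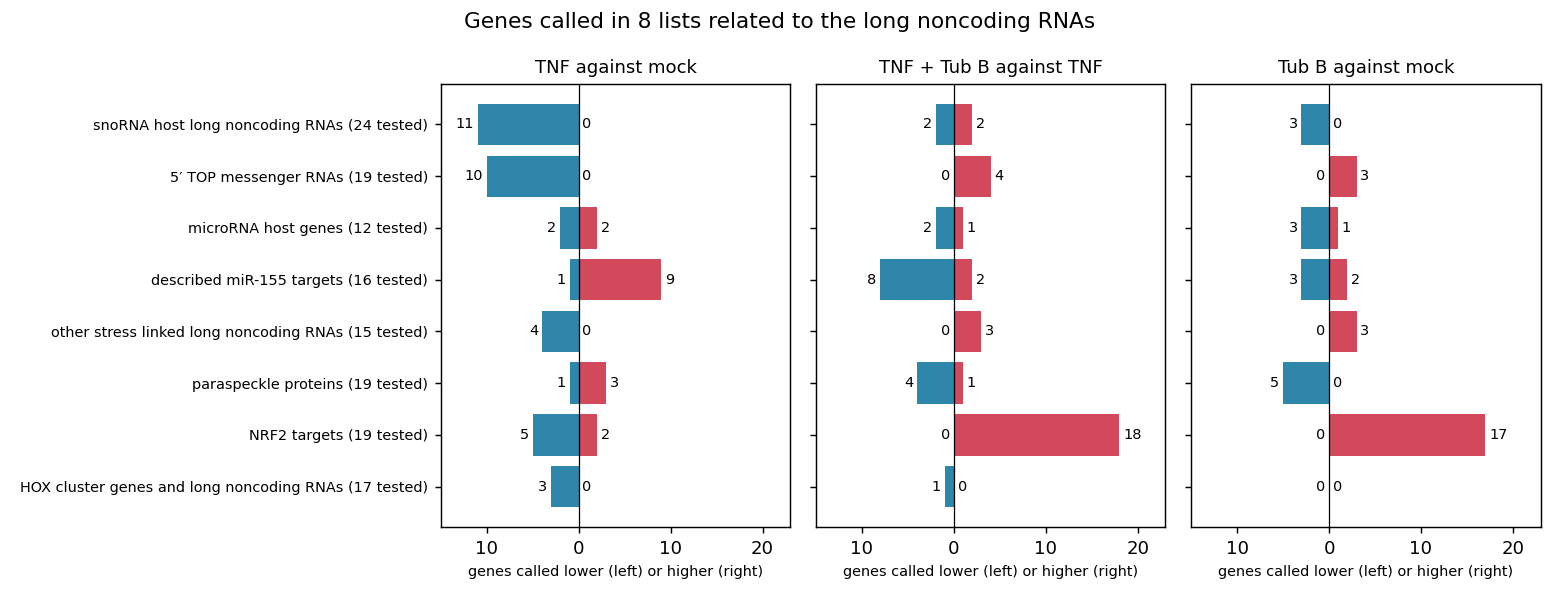
Number of genes called higher (red, to the right) or lower (blue, to the left) at an adjusted p below 0.05 in 8 lists related to the long noncoding RNAs, in 3 comparisons. The vertical axis names each list with the number of genes tested. Of 19 NRF2 targets, 18 were higher in TNF + Tub B against TNF and 17 in Tub B against mock, where 7.11% and 4.83% of all genes were. In TNF against mock 11 of 24 snoRNA hosts and 10 of 19 5′ TOP messenger RNAs were lower, where 13.3% of all genes were. In that comparison 9 of 16 described miR-155 targets were higher, where 17.2% of all genes were.

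Among 15 other long noncoding RNAs tied to p53, hypoxia or growth, 4 were lower with TNF, where 13.3% of all genes were, with a median of -0.10 against -0.003 over all genes. With Tub B alone 3 were higher, where 4.83% of all genes were, with a median of 0.14 against 0.003. The lower count was 2 without mock replicate 1, TNF replicate 1 or TNF replicate 2, and the higher count 1 without Tub B replicate 2. LINC00657 (NORAD), which holds PUMILIO proteins and is induced by DNA damage, had a mean of 486 CPM in mock, 428 with TNF, 575 with TNF + Tub B and 591 with Tub B. It changed by -0.18 ± 0.04 with TNF (adjusted p = 0.00286, edgeR), by 0.42 ± 0.04 when Tub B was added (adjusted p = 8.39e-07) and by 0.28 ± 0.04 with Tub B alone (adjusted p = 0.000233). LINC01021 (PURPL), a p53-induced transcript, changed by -0.49 ± 0.12 with TNF and 0.44 ± 0.13 with added Tub B. LINC-PINT, another p53-induced transcript, rose by 0.68 ± 0.16 with Tub B alone. OIP5-AS1 rose by 0.27 ± 0.06 when Tub B was added to TNF, and FTX by 0.24 ± 0.07 with Tub B alone.

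Levels can be compared between the 7 genes only per length, here as CPM per kilobase of all annotated exons (GENCODE 29). In mock the order was MALAT1 at 134, NEAT1 at 34.3, GAS5 at 24.2, MIR22HG at 18.1, HOTAIR at 6.00, MIR155HG at 0.365 and LUCAT1 at 0.0373. With TNF the order was MALAT1 at 104, NEAT1 at 30.6, MIR22HG at 19.6, GAS5 at 18.2, HOTAIR at 4.82, MIR155HG at 2.66 and LUCAT1 at 0.0981. MIR22HG and GAS5 thus changed places, and with TNF + Tub B they stood at 19.6 and 21.0 and with Tub B at 19.5 and 24.6. In each of the 4 groups the gap between any 2 neighbours in the order was larger than their SDs added. These SDs do not cover the choice of length. The 22767 bases of NEAT1 include its long form, which poly(A) selection recovers poorly. Its place in the order therefore depends on the length used, and other lengths were not tested. LUCAT1 was the last in every group, at 0.331 with TNF + Tub B and 0.122 with Tub B, against 1.03 and 0.440 for MIR155HG. The annotated exons of LUCAT1 cover 16538 bases, more than one transcript would, so its value per kilobase is low in part by this construction.

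Genes whose levels followed a member most closely over the 8 libraries were ranked by Pearson's r of log2 CPM among 10017 or 10018 genes, as a description. The libraries share their treatments, so the 8 points are not independent. For LUCAT1 the closest were ZBTB25 (r = 0.980), TRNAU1AP (0.974) and GLRB (0.972). For MIR155HG they included TNFRSF14, a receptor of the TNF superfamily (0.992), and DPYSL3 (0.991). For NEAT1 they were USP46 (0.981), IQCE (0.981) and IARS2 (0.980), and for MALAT1 ATF6B (0.995), CRTC3 (0.990) and NARS2 (0.976). GAS5 was closest to HEMK1 (0.991), BAG4 (0.982) and FAM171A2 (0.980), and HOTAIR to TXNRD3 (0.969), DGKQ (0.968) and TBCK (0.964). MIR22HG was closest to RIOK3 (0.948), FAM114A1 (0.946) and YTHDC1 (0.916), and the values of FAM114A1 and YTHDC1 went down to 0.404 and 0.529 when 1 library was left out.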

How the data were processed

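RNA of 8 MH7A libraries was poly(A)-selected and made into libraries by a kit that loses strand, per the labels' protocols. STAR 2.7.0 and featureCounts are named in the submitters' processing notes, as are the builds hg19 and mm10 without a role. The authors deposited whole-number read counts per gene symbol. From these counts CPM were computed, and 16647 of 38173 genes passed filterByExpr. edgeR 4.0.16 (R 4.3.3; TMM scaling, 1 coefficient per group over all 8 libraries, quasi-likelihood test, Benjamini-Hochberg adjusted p below 0.05) gave 5 comparisons, including the interaction. Totals per library ran from 14073186 to 31937334 counts. With 2 libraries per group there were 4 residual degrees of freedom, and errors shrink toward all genes. SE is that of the log2 fold change. The script was tested on simulated data.

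The members and lists were chosen with earlier results of these data known, and LUCAT1 in TNF + Tub B against Tub B, planned as a test, is given as a description. List genes are named where they were called, reached 5 CPM in the higher group, did not overlap between groups and were among the 3 largest changes of a list and comparison. Some genes that this rule or the rankings pick are not reported here. The alternatives were other scalings, DESeq2 1.42.0, limma 3.58.1 (voom), other filters, a stricter threshold, a replicate block, only the groups compared and each library left out. Sequences and nearest genes are from RefSeq (GRCh38.p14), a build that the processing notes do not name, so it may differ from that of the counts. Overlaps on the opposite strand and exon lengths are from GENCODE 29.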

Additional observations from a re-analysis of the deposited data

Results flagged for a closer look

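The response of MIR155HG to TNF differed with and without Tub B by a test of the interaction, -1.66 ± 0.45 on the log2 scale (adjusted p = 0.0447, edgeR's quasi-likelihood test, 2 libraries per group). The TNF libraries, at 4.79 and 3.73 CPM, lay above those of TNF + Tub B, at 1.56 and 1.73 CPM, while mock (0.604 and 0.564 CPM) and Tub B (0.700 and 0.709 CPM) were close. The difference kept its sign under every alternative that gave a value, from -1.80 without TNF replicate 2 to -1.44 without TNF replicate 1. The adjusted p was 0.0558 with library totals, 0.0502 with upper-quartile scaling and 0.0594 with limma-voom. When a library was left out it ran from 0.0498 (mock replicate 2) to 0.178 (Tub B replicate 1), and it passed in 1 of the 8 cases. DESeq2 gave it no adjusted p.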

How the results depend on the processing

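With 2 libraries per group, leaving one out leaves a single library that is assumed to vary like the other groups. Of the 7 genes, 6 were called in TNF against mock (3 at an adjusted p below 0.01, 3 to 6 with a library left out). In TNF + Tub B against TNF 3 of 6 were called (1 at 0.01, 1 to 3 with a library left out), in Tub B against mock 1 of 6 (2 with no filter, 0 to 2 with a library left out), and in TNF + Tub B against Tub B 5 of 6 (3 to 5). In the interaction 1 of 6 was called, 0 with library totals, upper-quartile scaling, limma-voom or a threshold of 0.01, 0 with DESeq2, which gave MIR155HG no adjusted p, 2 with no filter and 0 to 1 with a library left out. The cause was not tested, beyond the smaller number of libraries and the stricter threshold. The fit on only the groups compared was not run for the interaction. Calls over all genes moved as well. At an adjusted p below 0.01 they were 3477, 2106, 1058, 2980 and 326 of 16647 genes tested, in the order above. In the main setting they were 5077, 3367, 2120, 4397 and 705. With no filter, 2225 of 38173 genes were called in Tub B against mock and 932 in the interaction. The calls over all genes also varied with the library left out.

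Among the tested changes of the 7 genes, those that turned their sign had not passed. The untested LUCAT1 interaction of 0.20 ran from -0.32 without mock replicate 1 to 0.56 without Tub B replicate 2. In TNF + Tub B against TNF MALAT1 was 0.0040 with library totals (-0.28 to 0.016 with a library left out), MIR22HG -0.013 with no filter (-0.0082 to 0.013) and HOTAIR 0.098 with library totals and 0.022 with upper-quartile scaling (-0.22 to 0.16). In TNF + Tub B against Tub B MIR22HG was -0.0016 with library totals, -0.033 with upper-quartile scaling and -0.0018 with no filter (-0.014 to 0.019). With a library left out MIR22HG ran from -0.0013 to 0.24 in TNF against mock, -0.0084 to 0.23 in Tub B against mock and -0.23 to 0.012 in the interaction. In the same way GAS5 ran from -0.053 to 0.087 and HOTAIR from -0.040 to 0.13 in Tub B against mock, and HOTAIR from -0.27 to 0.11 in the interaction.

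The share of all genes called higher depended on scaling in TNF + Tub B against TNF, with 1184 higher and 2183 lower in the main scaling, 3431 and 1325 with library totals, and 1733 and 1781 with upper-quartile scaling. In Tub B against mock the split was 804 higher and 1316 lower against 1530 and 867 with library totals, and in TNF against mock 2857 and 2220 against 2147 and 3474. Libraries with the same replicate number did not deviate together over all genes taken at once (correlations of -0.048 to 0.047 over 16647 genes). Such a correlation cannot show a pairing that touches only some genes, which was not tested. With the replicate number as a block the counts of members called were 6, 3, 1, 5 and 1, as without it, and the calls over all genes went from 5077 to 5368, 3367 to 3656, 2120 to 2492, 4397 to 4671 and 705 to 914. Without Tub B replicate 2, the LUCAT1 difference of Tub B against mock was 1.23, and 2.13 without mock replicate 1. Counts of 8 to 94 limit the precision of LUCAT1, and of 10 to 145 that of MIR155HG.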

Other observations

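The nearest tested neighbour of LUCAT1 is ARRDC3, an arrestin-domain gene that regulates receptor traffic. Its mean level was 25.8 CPM in mock, 20.7 with TNF, 32.6 with TNF + Tub B and 37.5 with Tub B. It changed by 0.65 ± 0.08 when Tub B was added to TNF (adjusted p = 1.37e-05, edgeR) and by 0.53 ± 0.08 with Tub B alone (adjusted p = 0.000175), and both calls were kept under all 18 alternatives. With TNF it changed by -0.33 ± 0.08 (adjusted p = 0.00508), opposite in sign to LUCAT1, which missed the threshold with mock replicate 1 left out (adjusted p = 0.0558).

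TLCD2, a membrane lipid gene next to MIR22HG, changed by -0.41 ± 0.09 with TNF (adjusted p = 0.00165, edgeR) and by -0.75 ± 0.10 in Tub B cells (adjusted p = 1.44e-05), where MIR22HG gave 0.13 and 0.01.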
